A study of Mus musculus with 10 samples.

Results

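The 10 protein-coding genes that lie next to Rac2 on mouse chromosome 15 were examined in macrophages with and without Rac2. They are the 5 genes on either side of Rac2 in the RefSeq gene order, namely Kctd17, Tmprss6, Il2rb, C1qtnf6 and Sstr3 on one side and Cyth4, Elfn2, Mfng, Card10 and Cdc42ep1 on the other. They were chosen by position and not by their values, and they make up 10 of the 19935 genes that could be read by name. Each of the 10 was read by 1 array feature, and all 10 passed the filter and entered the test across features. Bone marrow-derived macrophages (BMDMs) from 5 WT and 5 Rac2-/- male C57BL mice were grown in MCSF, the growth factor that drives bone marrow cells to become macrophages, for 7 days at 50 ng/ml. They were kept at 16% oxygen until day 8 without further treatment, and each culture gave 1 Affymetrix whole-transcript array. The methods describe the Rac2-/- mice as a line backcrossed for many generations, with normal littermates as the source of WT cells. Both groups thus share strain, sex, growth factor and oxygen level, and differ by label only in homozygous loss of Rac2. The sources used here do not say which part of Rac2 is deleted or where the array feature for Rac2 lies relative to it.

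All values are log2 RMA values, in which 1 unit is a 2-fold change. Brightness on an array depends on the probes, so that values of different genes were not set against each other as levels. Passing the filter does not show expression, since the filter ended at 4.73 while the array medians were 6.07 to 6.14. Il2rb, Elfn2 and Cdc42ep1 had means below these medians in both groups. Tmprss6 (6.39 in WT and 6.33 in Rac2-/-) and Sstr3 (6.37 in both) had means little above them. Whether features with such low values read expression or background was not tested. In WT and in Rac2-/- alike, arrays 1 and 2 separated from arrays 3 to 5. The labels name no batch, and this split is known from the values alone. In bulk RNA, fewer cells of a type and less RNA per cell cannot be told apart. Of the macrophage genes, Lyz2, Csf1r and Adgre1 had means of 13.05, 12.66 and 12.57 in WT and 13.14, 12.78 and 12.68 in Rac2-/-. The other macrophage markers are given with those of other cell types.

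Rac2 encodes a small GTPase of blood cells that controls the actin cytoskeleton, migration and the oxidative burst. A targeted allele is carried with the chromosome around it. Genes beside a targeted locus can therefore be read separately from genes elsewhere, since an inserted cassette can act on nearby promoters and since DNA of the embryonic stem cell strain can remain linked to the allele after backcrossing. The neighbours themselves have no common function. Cyth4 and Cdc42ep1 act, like Rac2, with small GTPases and the cytoskeleton. Il2rb and Card10 belong to immune signalling. Sstr3 and Elfn2 are proteins of the cell surface best known from neurons, C1qtnf6 is secreted, Tmprss6 is a protease of the liver, Mfng modifies Notch receptors and Kctd17 is an adaptor for protein degradation.

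The gene starts on either side of Rac2 belong to Sstr3 and Cyth4, which makes their promoters the ones closest to the targeted gene. The RefSeq starts of these genes lie 52.7 kb apart, with Rac2 between them. The 250 bases before each start are shown 5′ to 3′ on the strand of the gene, from RefSeq on GRCm38.p6, as chr15:78544346-78544595 on the minus strand for Sstr3 and chr15:78596797-78597046 on the plus strand for Cyth4. Capitals mark the E-box CACGTG.
Sstr3: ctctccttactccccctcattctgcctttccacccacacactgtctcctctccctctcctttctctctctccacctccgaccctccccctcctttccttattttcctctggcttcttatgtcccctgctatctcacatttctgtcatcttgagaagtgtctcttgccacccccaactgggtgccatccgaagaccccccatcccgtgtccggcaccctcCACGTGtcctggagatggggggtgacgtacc
Cyth4: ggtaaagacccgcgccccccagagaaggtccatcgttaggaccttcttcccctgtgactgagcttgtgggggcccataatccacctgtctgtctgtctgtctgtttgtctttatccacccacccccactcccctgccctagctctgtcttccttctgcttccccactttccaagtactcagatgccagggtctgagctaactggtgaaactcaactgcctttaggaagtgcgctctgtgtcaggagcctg
Promoter windows were found for 6 of the 10 genes, 7 windows in all because Sstr3 has a second start. They were searched on both strands for GAGGAAGT, a site of the myeloid factor PU.1, for the TATA box TATAAA and for the E-box CACGTG, and no matches overlapped. The PU.1 letters were in 0 of the 7 windows and in 2.44% of all 32851 windows of the same length. The TATA letters were in 0 of the 7 and in 12.4% of all. The E-box was in the Sstr3 window shown, from 31 to 26 bases before the start, and in 6.02% of all windows. These matches are descriptions of letters in a short window only. The GC content was 57.2% in the Sstr3 window shown, 55.6% in the second Sstr3 window and 55.6% in the Cyth4 window. It was 62.8% for C1qtnf6, 73.6% for Elfn2, 76% for Card10 and 79.2% for Cdc42ep1.

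Rac2 itself was measured first as a check of the labels. Its values in WT arrays 1 to 5 were 11.81, 11.82, 12.26, 12.19 and 12.42, and in Rac2-/- arrays 6.90, 6.80, 7.04, 7.54 and 7.20. All 5 WT arrays lay above all 5 Rac2-/- arrays. The mean was 12.10 ± 0.27 in WT and 7.10 ± 0.29 in Rac2-/- (SD, n = 5 each), a difference of 5.00 (SE 0.17, 95% interval 4.63 to 5.38), or 32.1-fold, with an adjusted p of 7.73e-07 in limma. The exact permutation test gave p = 0.00794, the smallest that 5 against 5 arrays can give.

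**Figure D1:**
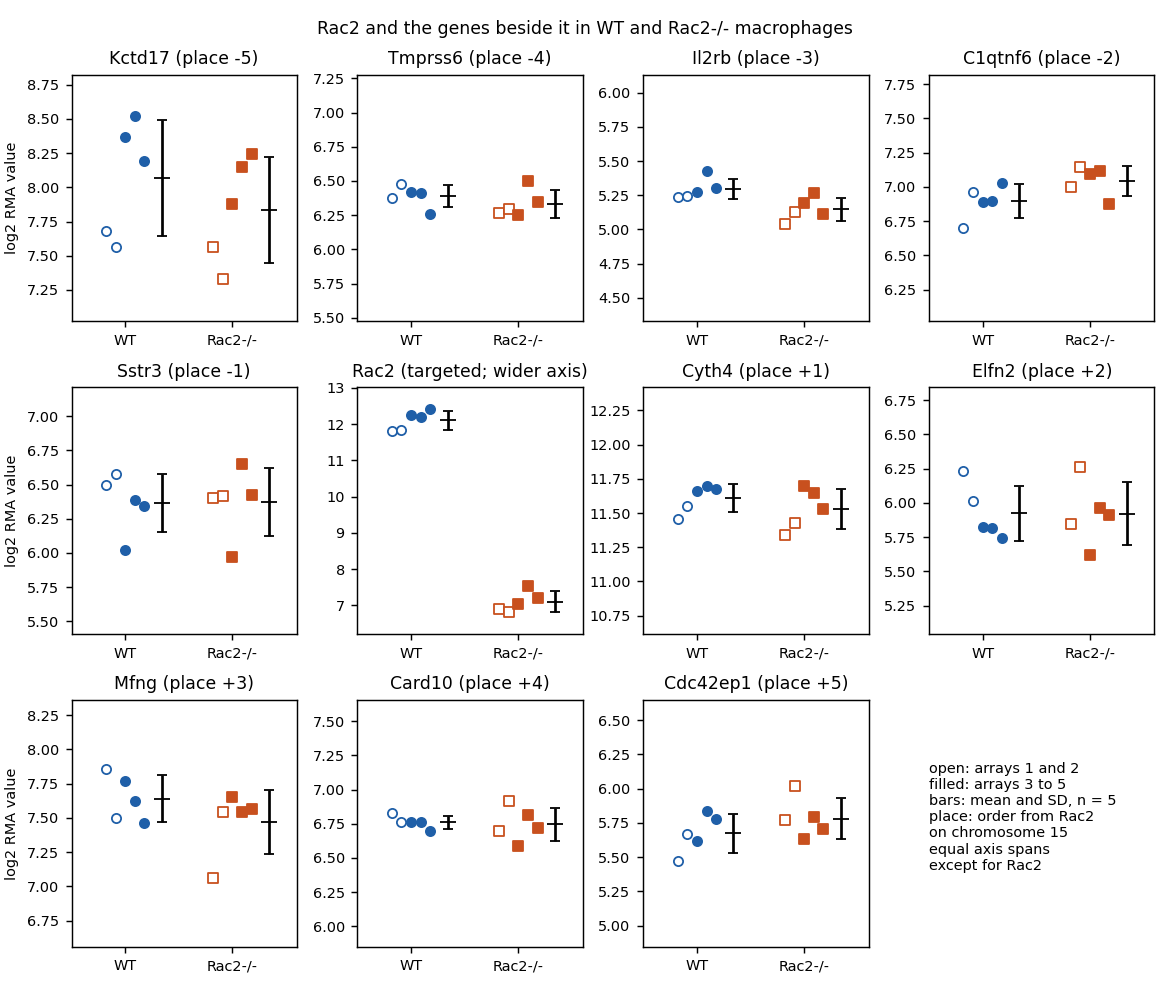
Each panel plots the log2 RMA value of 1 gene in the 5 WT and 5 Rac2-/- arrays, with the mean and SD beside the points and open symbols for arrays 1 and 2. Rac2 falls from about 12.10 to 7.10 between the groups, on an axis wider than that of the other panels, whereas the WT and Rac2-/- points overlap for every one of the 10 neighbouring genes.

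The differences of the 10 neighbours between WT and Rac2-/- were small, from -0.15 to 0.23 on the log2 scale. In limma, 0 of 10 passed an adjusted p of 0.05, where 1.9% of all features did so. With the replicate number as a block it was 0 of 10 against 6.35% of all features, and with a term for the array sets 0 of 10 against 9.34%. The values of the WT and Rac2-/- arrays did not separate for any neighbour (0 of 10), whereas they did for 4.52% of all features. Against such backgrounds, a count of 0 of 10 is not in itself a result about these genes, and the sizes of the differences are given for that reason. The largest of the 10, for Kctd17, was 0.23, against 5.00 for Rac2. It moved to 0.10 without Rac2-/- array 2 and to 0.36 without WT array 2. The median size was 0.093 over the 10 genes and 0.104 over all features tested. The 95% interval covered 0 for all 10 genes and lay inside a 2-fold change for all 10. It stayed within 0.5 log2 units for 9. Differences of 0.34 to 1.08, depending on the gene, would have been needed for a call in the fit without a block. Smaller changes in these genes could not have been called by that fit.

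Cyth4, the gene that follows Rac2 on the side of Elfn2, encodes a cytohesin, a factor that loads Arf GTPases with GTP at membranes and that is found mainly in blood cells. WT arrays 1 to 5 gave 11.46, 11.55, 11.66, 11.70 and 11.68, and Rac2-/- arrays gave 11.34, 11.43, 11.69, 11.65 and 11.53. The groups overlapped, and arrays 1 and 2 were the lowest in each. The means were 11.61 ± 0.10 and 11.53 ± 0.15, with a difference of 0.08 (SE 0.09, 95% interval -0.12 to 0.28, adjusted p = 0.974, limma). The interval thus allowed at most 1.22-fold more in WT.

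Cdc42ep1 encodes an effector that binds active Cdc42, a GTPase close to Rac, and acts on actin and septins. Its values were 5.47, 5.67, 5.62, 5.83 and 5.78 in WT and 5.77, 6.02, 5.63, 5.79 and 5.70 in Rac2-/-. The groups overlapped, with the highest value in Rac2-/- array 2 and the lowest in WT array 1. The difference was -0.11 (SE 0.10, 95% interval -0.33 to 0.11, adjusted p = 0.930, limma). It was -0.32 within arrays 1 and 2 and 0.04 within arrays 3 to 5.

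Il2rb encodes the β chain shared by the receptors for IL-2 and IL-15, best known from NK and T cells. WT arrays gave 5.24, 5.24, 5.27, 5.42 and 5.30, and Rac2-/- arrays gave 5.04, 5.13, 5.19, 5.26 and 5.11. Only Rac2-/- array 4 reached into the WT range. The WT array was above the Rac2-/- array of the same number in every case, though no label says that arrays of the same number are pairs. Means were 5.30 ± 0.08 and 5.15 ± 0.08, and the difference of 0.15 (SE 0.07, 95% interval -0.01 to 0.31) had the smallest p of the 10 genes, with an adjusted p of 0.561 in limma and 0.184 with the replicate block. The exact permutation test on this gene alone gave p = 0.0238, the only one of the 10 below 0.05, without adjustment for the 10 tests. The difference was 0.16 within arrays 1 and 2 and 0.14 within arrays 3 to 5. The values lay near the lower end of those kept, where the filter ended at 4.73.

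Card10 encodes a scaffold that joins Bcl10 and Malt1 on the way to NF-κB, mostly outside the blood. Its values were 6.83, 6.76, 6.76, 6.76 and 6.69 in WT and 6.69, 6.91, 6.59, 6.81 and 6.72 in Rac2-/-. The Rac2-/- arrays spread to both sides of the WT arrays. The means were 6.76 ± 0.05 and 6.75 ± 0.12, with a difference of 0.02 (SE 0.08, 95% interval -0.16 to 0.19).

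Sstr3, the last gene before Rac2 on the side of C1qtnf6, encodes a receptor for somatostatin that sits in the cilia of neurons. WT arrays gave 6.50, 6.57, 6.02, 6.39 and 6.34, and Rac2-/- arrays gave 6.40, 6.41, 5.97, 6.65 and 6.42. Array 3 was the lowest in both groups. The means were 6.37 ± 0.21 and 6.37 ± 0.25, a difference of -0.0057 (SE 0.14, 95% interval -0.32 to 0.31, adjusted p = 0.999, limma). The difference changed sign between array sets, at 0.13 within arrays 1 and 2 and -0.10 within arrays 3 to 5.

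Elfn2 encodes a leucine-rich repeat protein of the membrane that binds metabotropic glutamate receptors at synapses. Its values were 6.24, 6.01, 5.82, 5.82 and 5.74 in WT and 5.85, 6.27, 5.62, 5.96 and 5.91 in Rac2-/-. The groups covered almost the same range. The difference was 0.0039 (SE 0.13, 95% interval -0.29 to 0.30, adjusted p = 0.999, limma), and its sign turned with quantile normalization (-0.0097) and with median centring (-0.013). Elfn2 and Card10, separated by Mfng, had the most similar profiles among all pairs of the 10 genes, with Pearson r = 0.893 over the 10 arrays. The next pairs were Il2rb and Cyth4 (r = 0.769) and Kctd17 and Cyth4 (r = 0.757), and the lowest was Cyth4 and Elfn2 (r = -0.615). These values are descriptions, since the arrays share the split between arrays 1 and 2 and arrays 3 to 5.

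C1qtnf6 encodes a secreted protein of the C1q and TNF family. WT arrays gave 6.70, 6.96, 6.89, 6.90 and 7.03, and Rac2-/- arrays gave 7.00, 7.14, 7.09, 7.11 and 6.88. Of the Rac2-/- arrays, array 5 lay inside the lower part of the WT range, and the other 4 were above 4 of the 5 WT arrays. The difference was -0.15 (SE 0.09, 95% interval -0.34 to 0.04, adjusted p = 0.705, limma), and the exact permutation p was 0.0873.

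Tmprss6 encodes matriptase-2, the liver protease that cleaves hemojuvelin and so lowers hepcidin. Its values were 6.37, 6.48, 6.42, 6.41 and 6.26 in WT and 6.27, 6.30, 6.25, 6.50 and 6.35 in Rac2-/-. The groups overlapped, with the highest value in Rac2-/- array 4. The difference was 0.06 (SE 0.08, 95% interval -0.11 to 0.23), at 0.15 within arrays 1 and 2 and -0.0029 within arrays 3 to 5.

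Mfng encodes Manic fringe, a glycosyltransferase that extends O-fucose on Notch receptors and so tunes their response to ligands. WT arrays gave 7.86, 7.50, 7.77, 7.62 and 7.46, and Rac2-/- arrays gave 7.06, 7.54, 7.65, 7.55 and 7.56. Rac2-/- array 1 lay below all other arrays, and the other 4 fell inside the WT range. The difference of 0.17 (SE 0.13, 95% interval -0.12 to 0.45, adjusted p = 0.864, limma) went to 0.06 without Rac2-/- array 1. It was 0.37 within arrays 1 and 2 and 0.03 within arrays 3 to 5.

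Kctd17, the farthest of the 5 genes on its side, encodes an adaptor of the Cullin-3 ubiquitin ligase linked to the formation of primary cilia. WT arrays gave 7.68, 7.56, 8.37, 8.52 and 8.19, and Rac2-/- arrays gave 7.57, 7.33, 7.88, 8.15 and 8.24. Arrays 1 and 2 were the lowest of each group. The means were 8.06 ± 0.42 and 7.83 ± 0.39, the widest spread of the 10 genes, and the difference was 0.23 (SE 0.23, 95% interval -0.29 to 0.75). The upper bound is 1.68-fold. The difference was 0.17 within arrays 1 and 2 and 0.27 within arrays 3 to 5, and its SE was 0.09 with the replicate block, with an adjusted p of 0.20 in limma.

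Over the 10 genes, 7 means were higher in WT and 3 in Rac2-/- (C1qtnf6, Sstr3 and Cdc42ep1), and 50.1% of all features were higher in WT. The median difference was 0.036 over the 10 genes and 0.00034 over all features. The signs within arrays 1 and 2 and within arrays 3 to 5 were the same for 5 of the 10. At an unadjusted p of 0.05, limma called 0 of the 10 and 10.4% of all features. With the replicate block it was 2 of the 10, Kctd17 and Il2rb, and 21.5% of all features. The scatter left within the groups was a median of 0.136 over the 10 genes and 0.222 over all features.

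**Figure D2:**
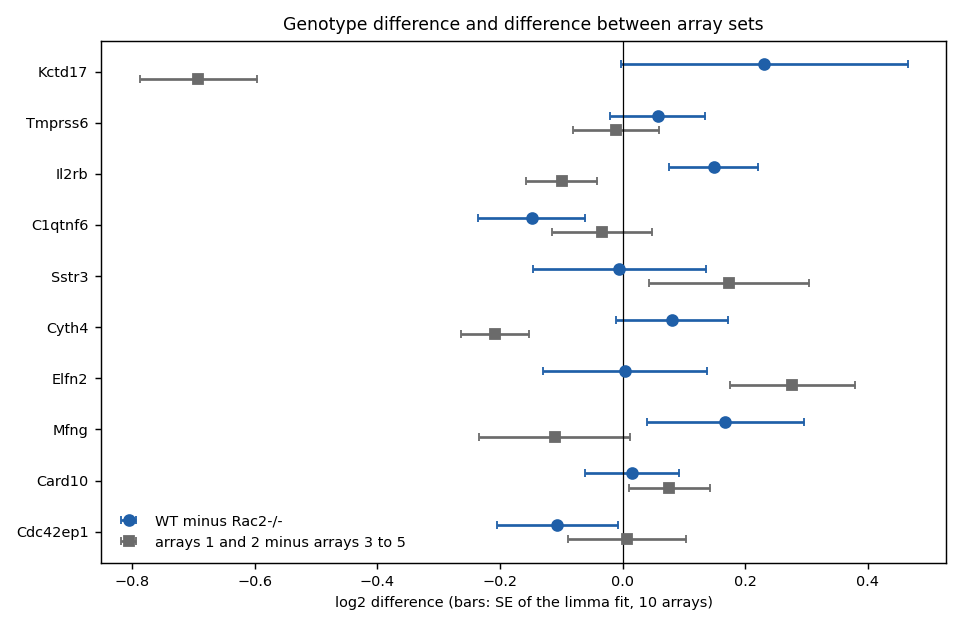
For each of the 10 genes the plot shows the log2 difference between WT and Rac2-/- and that between arrays 1 and 2 and arrays 3 to 5, with the SE of the limma fit over 10 arrays as bars. The genotype differences lie between -0.15 and 0.23, while the array sets differ by up to -0.69 in Kctd17.

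The array sets differed more than the genotypes did in 5 of the 10 genes. Between arrays 1 and 2 and arrays 3 to 5, 3 of the 10 genes passed the test, and 46.9% of all features did. Kctd17 was lower in arrays 1 and 2, with means of 7.53 and 8.23 and a difference of -0.69 (SE 0.10, adjusted p = 1.93e-04, limma). It was the only one of the 10 in which the array sets did not overlap, and it passed in WT alone and in Rac2-/- alone. Cyth4 was lower in arrays 1 and 2 by a smaller amount (-0.21, adjusted p = 0.0118), and Elfn2 was higher there (0.28, adjusted p = 0.0466). Rac2 differed in the same direction as Kctd17 (-0.44, adjusted p = 0.00363). The median size of this difference was 0.106 over the 10 genes and 0.247 over all features. The genotype difference itself was tested between the array sets as an interaction. It passed for 0 of the 10 genes and for 0% of all features in limma, with adjusted p from 0.876 to 0.995 for the 10 genes. The smallest unadjusted p was 0.0546, for Cdc42ep1. Over all features 1560 had an unadjusted p under 0.05, and 1499 with a trended and robust variance.

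The next genes along the chromosome were read in the same way, by their place in the gene order from Rac2. Of the genes 6 to 10 places away, 10 were measured and 0 passed the test. Of those 11 to 25 places away, 24 were measured and 1 passed (4.17%). It was 1 of 41 at 26 to 50 places (2.44%), 1 of 86 at 51 to 100 (1.16%) and 5 of 471 beyond (1.06%), against 393 of the 16239 other genes with a single symbol (2.42%), a set that leaves out only the measured protein-coding genes of chromosome 15. With the replicate block the counts were 0, 3, 3, 4 and 37, against 1226 of those other genes (7.55%). The shares at 11 to 25 places, 4.17% and 12.5%, rest on 1 and 3 genes.

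**Figure D3:**
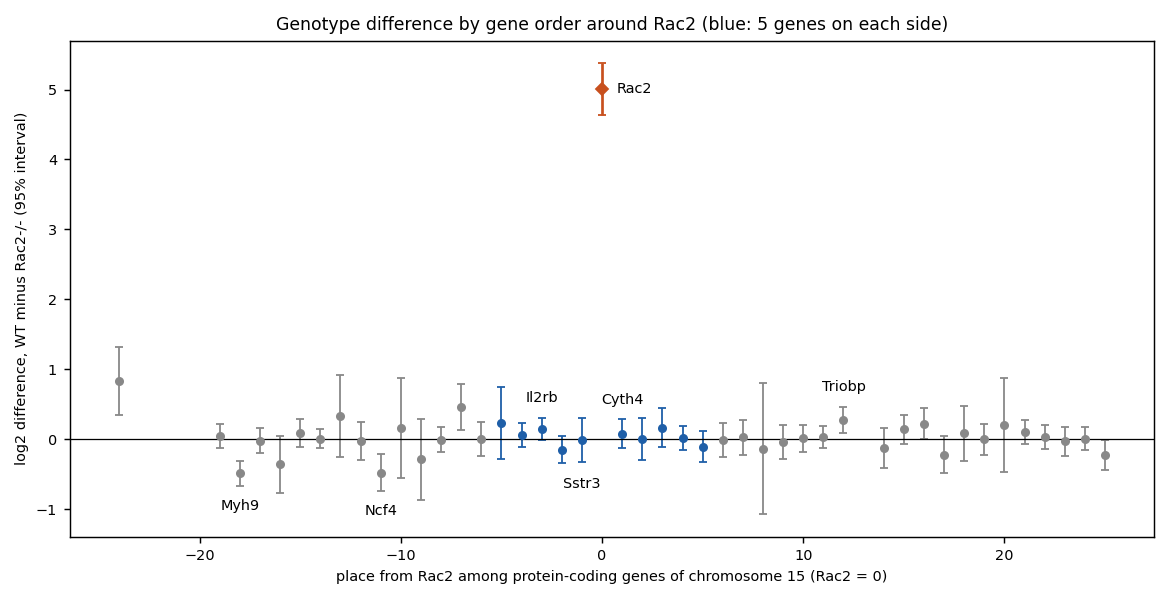
The log2 difference between WT and Rac2-/- is plotted with its 95% interval for the measured genes within 25 places of Rac2 in the gene order, with the 10 adjacent genes in blue. Rac2 stands at 5.00 and the 10 adjacent genes lie within 0.23 of 0, while Myh9 and Ncf4 lie below 0 at -0.49 and -0.48 and the unlabelled points at places -24 and -7, Apol7c and Tst, lie above 0 at 0.83 and 0.46.

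Within 25 places, the gene that passed was Myh9, 18 places away on the side of Kctd17, which encodes the heavy chain of non-muscle myosin IIA. WT arrays gave 10.33, 10.18, 10.06, 10.07 and 10.003, and Rac2-/- arrays gave 10.69, 10.66, 10.55, 10.57 and 10.60. All Rac2-/- arrays were above all WT arrays. The difference was -0.49 (SE 0.08, adjusted p = 0.0141, limma), with -0.43 within arrays 1 and 2 and -0.53 within arrays 3 to 5. Leaving out WT array 3 (adjusted p = 0.0530) or WT array 4 (adjusted p = 0.0506) ended the call.

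Ncf4, 11 places away on the same side, encodes p40phox, a subunit of the NADPH oxidase that Rac2 activates. WT arrays gave 10.98, 11.09, 10.72, 10.75 and 10.77, and Rac2-/- arrays gave 11.64, 11.45, 11.20, 11.25 and 11.15. The Rac2-/- arrays were all above the WT arrays. The difference of -0.48 did not pass without a block (adjusted p = 0.0856) and passed with the replicate block (adjusted p = 0.0128) in limma. Triobp, 12 places away on the side of Cdc42ep1, encodes an actin-binding protein. WT arrays gave 8.23, 8.25, 8.40, 8.39 and 8.34, and Rac2-/- arrays gave 7.97, 7.89, 8.09, 8.22 and 8.05. WT was above Rac2-/- throughout, with a difference of 0.28 and an adjusted p of 0.159 without and 0.0407 with the replicate block. Some genes that passed neither fit differed by more than Triobp in size. They were Apol7c, 24 places away on the side of Kctd17, Tst, 7 places away on that side, and Foxred2, Ift27 and Csf2rb, also on that side. All were named after their values were seen. Apol7c stood at 0.83 (95% interval 0.35 to 1.32, adjusted p = 0.107, and 0.0375 with a term for the array sets, limma). Tst stood at 0.46 (95% interval 0.14 to 0.79, adjusted p = 0.204, limma). Foxred2, Ift27 and Csf2rb stood at -0.36, 0.34 and -0.29. With the term for the array sets, Ift27 (adjusted p = 0.0369) and Csf2rb (0.0324) also passed in limma. So did Ankrd54 (difference 0.22, adjusted p = 0.0310) and Polr2f (0.21, 0.0489) on the other side, besides Myh9, Ncf4 and Triobp. That fit called 9.34% of all features. Besides Rac2 and the genes named here as passing it, no gene within 25 places did so. Measured there were 10 genes at 1 to 5, 10 at 6 to 10 and 24 at 11 to 25 places, so a share rests on few genes.

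Farther out, the 1 gene called at 26 to 50 places was Apobec3, a cytidine deaminase that restricts retroviruses, which was singled out after its values were seen. It lies 43 places from Rac2 on the side of Cyth4. WT arrays gave 11.34, 11.13, 11.63, 11.50 and 11.65, and Rac2-/- arrays gave 9.51, 9.22, 9.58, 9.55 and 9.41. All WT arrays lay well above all Rac2-/- arrays. The means were 11.45 ± 0.22 and 9.45 ± 0.14, and the difference of 2.00 (SE 0.12, 95% interval 1.73 to 2.26, adjusted p = 3.51e-05, limma) was the next after that of Rac2 in size on chromosome 15. It passed in all 10 fits that leave out 1 array, and stood at 1.87 within arrays 1 and 2 and 2.08 within arrays 3 to 5. Of the genes between Rac2 and Apobec3 in the gene order, none passed the test without a block. The arrays measured RNA only, and whether DNA sequence near Apobec3 differed between the groups was not tested.

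**Figure D4:**
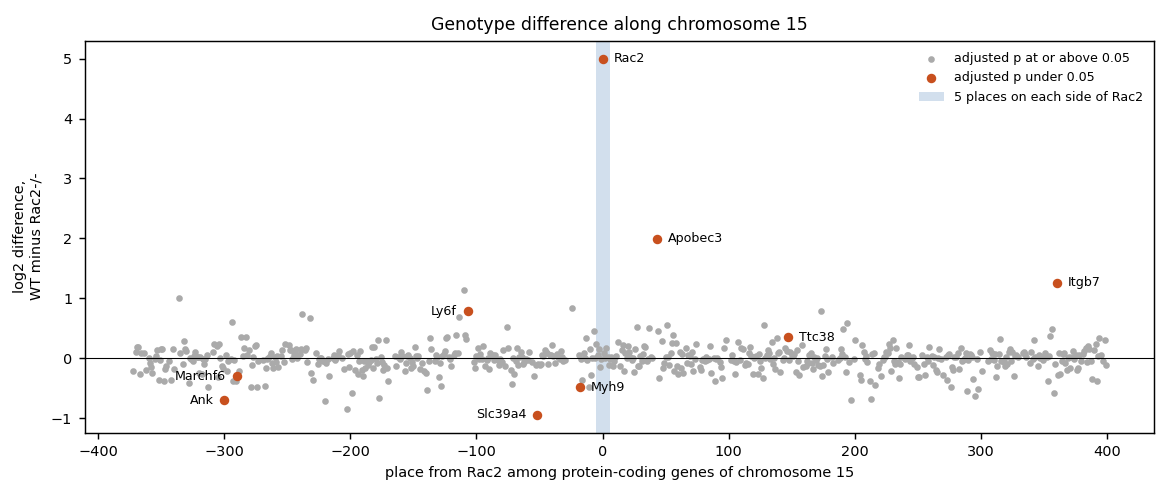
The log2 difference between WT and Rac2-/- is plotted for the 643 measured of 776 protein-coding genes of chromosome 15, by place in the gene order from Rac2, with the genes that passed limma in colour and by name. Rac2 and Apobec3 stand apart at 5.00 and 2.00, the band of 10 genes at the centre holds no coloured point other than Rac2, and the other called genes are spread over the chromosome.

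Other genes of the neighbours' pathways were read from lists of related genes. For Il2rb, 6 genes of IL-2 and IL-15 signalling were tested and 1 passed. Il15ra, which presents IL-15 to cells that carry Il2rb, was higher in WT, at 8.59 ± 0.32 against 7.68 ± 0.18, a difference of 0.91 (SE 0.16, adjusted p = 0.0181, limma). It no longer passed when WT array 3 (adjusted p = 0.0572), WT array 5 (0.0525) or Rac2-/- array 4 (0.0537) was left out. Il15 differed by 0.34 (adjusted p = 0.636) and Il2ra by 0.31 (adjusted p = 0.928).

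In the other lists no gene passed without a block. For Cyth4, it was 0 of 10 cytohesin and Arf genes, with the smallest p for Cytip (difference -0.67, adjusted p = 0.483), a partner of cytohesins. For Mfng, it was 0 of 13 genes of the Notch pathway, with Notch1 at -0.86 (adjusted p = 0.143, and 0.0123 with the replicate block). For Card10, it was 0 of 5, with Card9 at -0.16 (adjusted p = 0.531) and its partner Bcl10 at -0.46 (adjusted p = 0.903, and 0.0143 with the replicate block). For Cdc42ep1, it was 0 of 7 Cdc42 genes, with Cdc42ep2 at -0.32 (adjusted p = 0.740). For Tmprss6, it was 0 of 9 genes of hepcidin and iron, with Hfe at -0.46 (adjusted p = 0.586, and 0.0148 with the replicate block). For C1qtnf6, it was 0 of 10, with C1qtnf1 at 0.31 (adjusted p = 0.322). For Sstr3, it was 0 of 6, with Sstr5 at -0.27 (adjusted p = 0.396). For Kctd17, it was 0 of 6, with Kctd10 at -0.14 (adjusted p = 0.549), and for Elfn2 the single relative Elfn1 stood at -0.03 (adjusted p = 0.999). The median difference of these other lists ran from -0.15 to 0.03, and it was 0.19 for the list of IL-2 and IL-15 signalling.

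Since Il2rb is best known from NK and T cells, their markers were read beside it. Of 12 markers 10 were measured, 7 were tested and 0 passed. Ncr1, Klrb1c and Gzma, which define NK cells, were below the filter. Klrd1 had the smallest p, with a difference of 0.57 (adjusted p = 0.152), in the same direction as Il2rb. The list as a whole went both ways, with a median difference of 0.05. Of the 7 tested, 4 were higher in WT, namely Klrd1, Nkg7 (0.28), Eomes (0.12) and Cd3g (0.05). The T-cell markers Cd3e (-0.05), Cd4 (-0.06) and Cd8a (-0.03) were lower. The mean of the list lay between 5.37 and 5.58 in WT arrays and between 5.17 and 5.56 in Rac2-/- arrays. The 5 tested markers of mast cells and basophils were higher in WT, with 0 past the threshold and a median difference of 0.84. Their list means were 4.94 to 5.56 in WT arrays against 4.72 to 4.89 in Rac2-/- arrays, with Fcer1a, Ms4a2 and Mcpt4 below the filter. The part of such cells in the differences of Il2rb and Il15ra was not tested. No marker passed among 5 of neurons, where Sstr3 and Elfn2 are best known, or for the 1 tested of hepatocytes, where Tmprss6 is. Without a block the same was found for 3 B-cell, 8 neutrophil, 7 fibroblast, 4 epithelial and 2 erythroid markers. With the replicate block, Cd79b of B cells (difference -0.78, adjusted p = 0.0144) and Dcn (1.21, 0.0173) and Postn (0.69, 0.0039) of fibroblasts passed. Of 4 endothelial markers 1 passed, Kdr (difference 1.87, adjusted p = 0.0167). Of 10 macrophage markers 1 passed without a block, Mrc1, which was higher in Rac2-/- (difference -0.66, adjusted p = 0.00352). With the replicate block 4 passed, 1 higher in WT and 3 in Rac2-/-. They were Fcgr1 (0.74, adjusted p = 0.0449), Itgam (-0.33, adjusted p = 0.0380), Cd163 (-0.44, adjusted p = 0.0150) and Mrc1. Cd68 (0.22, adjusted p = 0.251 without a block), Cd14 (-0.22, 0.487) and Mertk (0.26, 0.491) passed neither fit.

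Genes with a pattern like that of Il2rb were sought because Il2rb had the smallest p of the neighbours. Over the 10 arrays, after the means of arrays 1 and 2 and of arrays 3 to 5 had been subtracted, Col6a1 (r = 0.978), Wrap73 (r = 0.964) and Cdh13 (r = 0.942) came first of 16881 genes compared. Without that subtraction the values were 0.318, 0.675 and 0.644. These are descriptions, as the highest of 16881 values over 10 arrays from which the genotype difference was not subtracted. How high r would run by chance was not tested. None of these genes passed the test between WT and Rac2-/-. Their differences were 0.31, 0.09 and 0.22, with adjusted p of 0.536, 0.999 and 0.331 in limma.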

How the data were processed

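RNA of 10 cultures, 5 WT and 5 Rac2-/-, was hybridized to Affymetrix whole-transcript mouse arrays, and all 10 arrays were used. The authors had processed the arrays with RMA (background correction, quantile normalization, probe summary) and deposited log2 values. That they are log2 was inferred from their range, 1.69 to 13.7, since no base is written. No genome build is named with them. According to the methods, the authors kept 27031 genes seen in several samples, removed a batch effect with ComBat and tested with limma. The deposited table still held 34760 features, and the difference between array sets had not been removed from it. Here features were ranked by their fourth-highest value over the arrays, and the top 27031 were used.

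Gene names came from the platform annotation through RefSeq tables of GRCm38.p6, which served for names, gene order and promoter sequences. A single symbol was given for 21640 features, several for 1321, and 11799 were not listed. Current names were found through the Entrez identifier in 21553 cases and through an accession in 3, and the other 84 names were left unchanged.

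WT and Rac2-/- were compared in R 4.3.3 with limma 3.58.1 over all features kept and no block (Benjamini-Hochberg, adjusted p under 0.05). The code was tested on simulated data. Single genes were also tested with exact permutation tests, two-sided, over all 252 splits. Arrays with the same replicate number deviated together (r from 0.493 to 0.716), every pair over 0.1, so the number was used as a block in an alternative fit. Arrays of other numbers in the same set did so too (0.476 to 0.724), and the own number gave the highest correlation for 5 of 10 arrays. The other alternatives were no filter and a stricter filter, a term for arrays 1 and 2, ComBat (re-coded), each array set alone, trended and robust variance, array weights, quantile normalization, median centring and leaving out each array. The values of several features of a gene were not averaged, since each of the 10 genes had 1 feature.

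The text names the 10 genes and Rac2, genes within 25 places that passed either fit, in each list the genes that passed or the one with the smallest p, the 3 genes most like Il2rb, and markers. Apobec3, Apol7c, Tst, Bcl10, Il15, Il2ra, Kdr, Cd79b, Dcn, Postn, Fcgr1, Itgam and Cd163 were named after their values were seen. So were Foxred2, Ift27, Csf2rb, Ankrd54 and Polr2f. The genes and lists were chosen with earlier results of these data known. The number of arrays limits the precision. Cultures are taken as separate mice from the design text.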

Additional observations from a re-analysis of the deposited data

Results flagged for a closer look

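One value stood apart from its group. Mfng in Rac2-/- array 1 was 7.06, while the other 4 Rac2-/- arrays lay between 7.54 and 7.65. It was the only one among 22 groups of 5 arrays, for Rac2 and its 10 neighbours, whose distance to the nearest array was large enough for its range in Dixon's test. Chance gives about 1 such value in 20 groups. Without this array the difference of Mfng between WT and Rac2-/- was 0.06 in place of 0.17, and neither passed the test.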

How the results depend on the processing

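For the 10 neighbours of Rac2 no call appeared in any of the 22 fits. The lowest adjusted p was 0.0522, for Il2rb after ComBat. Of 110 values of the 10 genes under the 11 other settings with all arrays or 1 array set, 100 kept their direction and 10 reversed. Elfn2 reversed with ComBat (-0.0021), in arrays 3 to 5 alone (-0.039), with array weights (-0.040), quantile normalization (-0.0097) and median centring (-0.013). Sstr3 (0.13) and Card10 (-0.0089) reversed in arrays 1 and 2 alone, Tmprss6 (-0.0029) and Cdc42ep1 (0.037) in arrays 3 to 5 alone, and Card10 with median centring (-0.0012). Leaving out 1 array moved Kctd17 from 0.10 to 0.36, Sstr3 from -0.11 to 0.081, Elfn2 from -0.074 to 0.090, Card10 from -0.024 to 0.057 and Elfn1 from -0.085 to 0.043. These differences are close to 0, and the cause of the reversals was not tested.

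Of all features 514 passed without a block. The fit with the replicate block gave 1716, a term for the array sets 2524, ComBat 4386, array weights 1811, arrays 3 to 5 alone 1487 and arrays 1 and 2 alone 2, where 4 arrays remain. The block changed the call of no neighbour. Of the other genes named, it changed the calls of Ncf4, Triobp, Notch1, Hfe, Bcl10, Itgam, Fcgr1, Cd163, Cd79b, Dcn and Postn, with the values given above. Without 1 array the count ran from 245 to 625. It moved by over 1.5 times without WT array 2 (297), 3 (245), 4 (263) or 5 (281) and without Rac2-/- array 2 (322), 3 (297) or 4 (274). Between arrays 1 and 2 and arrays 3 to 5, 12675 features differed, with 10253 in WT alone and 6795 in Rac2-/- alone. In arrays 1 and 2 alone, Myh9 (-0.43), Apobec3 (1.87) and Il15ra (0.60) kept their direction and missed the threshold.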
